A study of Oryza sativa with 6 samples.

Results

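Invertases split sucrose into glucose and fructose, and 5 rice genes for these enzymes were followed here in anthers of wild-type plants and of the dmd1 mutant. The members were taken by identifier: the cell wall invertase genes OS02G0534400, CIN2 (OS04G0413500) and INV4 (OS04G0413200), and the vacuolar invertase genes OS02G0106100 and OS04G0535600. All 5 were found among the 94013 rows of the authors' table, and all 5 passed the filter on low values. The labels give the 2 groups as dmd1 wild-type and dmd1 mutant, with 3 anther libraries each, from plants 3 months old, and the series text places the anthers between the tetrad and the early microspore stage. The sources used here do not give the mutant allele, the genetic background or the number of plants behind a library. The series text calls the libraries of a genotype biological replicates. Libraries of the same genotype also stood apart from each other. On the second principal component, with 26.7% of the variance, wild-type library 2 and dmd1 library 1 lay on one side, wild-type libraries 1 and 3 and dmd1 library 3 on the other, and dmd1 library 2 between them. The labels give no batch that matches these sides, and each has too few libraries for a test.

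Developing pollen is cut off from the phloem by a lack of cytoplasmic connections, so sugar reaches it through the space outside the cells. Cell wall invertases act in that space, and the hexoses they release are taken up by monosaccharide transporters. Vacuolar invertases act on sucrose stored inside the cell and are known for their part in cell expansion. In rice, CIN2 is also known as GIF1, a gene needed for grain filling, and INV4 is known as an anther gene whose level drops under cold. Sucrose synthases and cytosolic neutral invertases offer other routes for sucrose breakdown, and hexokinases carry the hexoses into metabolism.

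The authors deposited FPKM, a level scaled by transcript length and by the fragments mapped in a library, so levels of different genes can be set side by side. Among the 5 members, CIN2 was by far the most abundant transcript, and INV4 was the least abundant in wild type. INV4 rose 3.00-fold in mean FPKM in dmd1. The dmd1 means of the other genes, none of them called, were 0.650 of wild type for CIN2, 0.915 for OS02G0534400, 1.57 for OS02G0106100 and 0.653 for OS04G0535600. Only INV4 was called among the 5, where a call needed a limma adjusted p under 0.05 together with at least 1 log2 unit of change. Of the 25474 rows tested, 6.71% were called, 3.16% as higher and 3.54% as lower in dmd1. By the adjusted p alone 13% of rows passed, 7.8% higher and 5.18% lower, and INV4 was again the only member. In 3 of the 5 members the libraries of the genotypes did not overlap, against 38.4% of all tested rows. Counts over 5 genes are too small to be read against those shares.

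**Figure D1:**
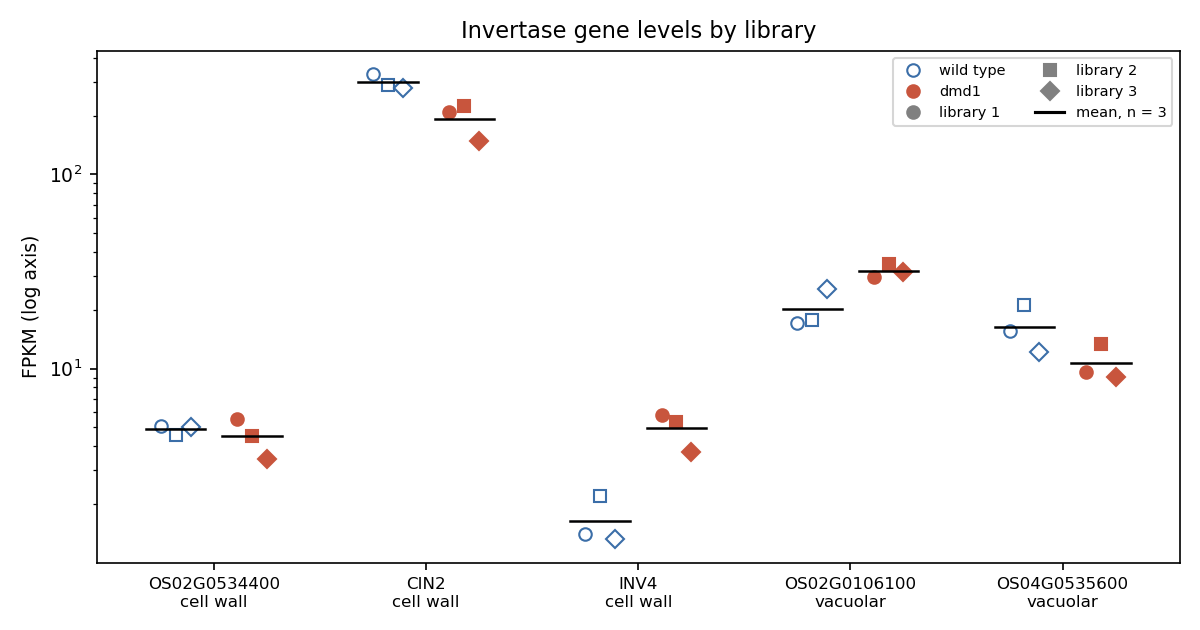
FPKM on a log axis for the 5 invertase genes in each library. Open blue symbols are wild type, filled red symbols dmd1, marker shape gives the library number and black lines are means of 3 libraries. CIN2 averages 299 FPKM in wild type and 194 in dmd1, far above the other genes, and the INV4 libraries of the 2 genotypes do not overlap.

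INV4 stood at 1.41, 2.22 and 1.32 FPKM in wild-type libraries 1, 2 and 3. In dmd1 libraries 1, 2 and 3 it stood at 5.76, 5.32 and 3.73 FPKM. Every dmd1 library was above every wild-type library, and dmd1 library 3 was the lowest of its group. The means were 1.65 ± 0.50 and 4.94 ± 1.07 FPKM (SD, n = 3). On the log2(FPKM + 1) scale, which understates changes of low genes, the change was 1.16 ± 0.22 (SE) with a 95% interval from 0.64 to 1.69 (adjusted p = 0.0225 by limma). Of all tested rows, 25.3% had every dmd1 library above every wild-type library. The INV4 call did not survive the loss of wild-type libraries 1 or 3 or of dmd1 libraries 1 or 2 (adjusted p = 0.0874, 0.0789, 0.0656 and 0.0888 by limma), although the log2 changes in those fits stayed between 1.06 and 1.11.

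CIN2 was at 329, 289 and 278 FPKM in wild-type libraries 1, 2 and 3. Its dmd1 values were 210, 225 and 148 FPKM. The genotypes did not overlap, dmd1 library 3 was again the lowest, and 13.1% of all tested rows had every dmd1 library below every wild-type library. The means were 299 ± 27.1 and 194 ± 40.8 FPKM (SD, n = 3), and the log2 change was -0.64 ± 0.20 (SE, 95% interval from -1.11 to -0.17). This did not pass (adjusted p = 0.0801 by limma). The adjusted p went under the threshold with median-of-ratios scaling (adjusted p = 0.0308 by limma) and with library weights (adjusted p = 0.0323 by limma), but the log2 changes of -0.77 and -0.45 stayed under the fold minimum. Here and for the other genes, fewer cells of a type and less RNA per cell cannot be told apart in a bulk anther sample.

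The third cell wall gene, OS02G0534400, held nearly the same mean level in both genotypes. Wild-type libraries 1, 2 and 3 had 5.08, 4.58 and 5.01 FPKM. The dmd1 libraries had 5.50, 4.48 and 3.44 FPKM, so the dmd1 values spread on both sides of wild type. The log2 change was -0.12 ± 0.18 (SE), and its 95% interval ran from -0.55 to 0.31 (adjusted p = 0.686 by limma). The interval leaves out a doubling or a halving on this scale. The sign turned without dmd1 library 3, where the log2 change was 0.020, and with libraries scaled to equal totals, where it was 0.039.

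Of the vacuolar genes, OS02G0106100 was at 17.2, 17.8 and 25.6 FPKM in wild-type libraries 1, 2 and 3, and at 29.5, 34.4 and 31.3 FPKM in dmd1. All dmd1 libraries were above all wild-type libraries, with wild-type library 3 closest to the mutant. The means were 20.2 ± 4.72 and 31.7 ± 2.51 FPKM (SD, n = 3), and the log2 change was 0.65 ± 0.18 (SE, 95% interval from 0.22 to 1.07). It did not pass (adjusted p = 0.0603 by limma). Without wild-type library 3 the adjusted p was 0.0454 (limma), and with library weights it was 0.00939 (limma). The log2 changes of 0.82 and 0.69 in those fits were under the fold minimum.

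OS04G0535600, which also codes for a vacuolar invertase, stood at 15.6, 21.4 and 12.3 FPKM in wild-type libraries 1, 2 and 3, and at 9.60, 13.5 and 9.07 FPKM in dmd1. The genotypes overlapped, since dmd1 library 2 exceeded wild-type library 3. The means were 16.4 ± 4.60 and 10.7 ± 2.39 FPKM (SD, n = 3), with a log2 change of -0.56 ± 0.24 (SE, 95% interval from -1.13 to 0.01; adjusted p = 0.169 by limma). With library weights the log2 change shrank to -0.12; in that fit dmd1 library 2 had a weight of 9.13, against 0.471 and 0.438 for dmd1 libraries 1 and 3. Without wild-type library 2 it was -0.36.

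**Figure D2:**
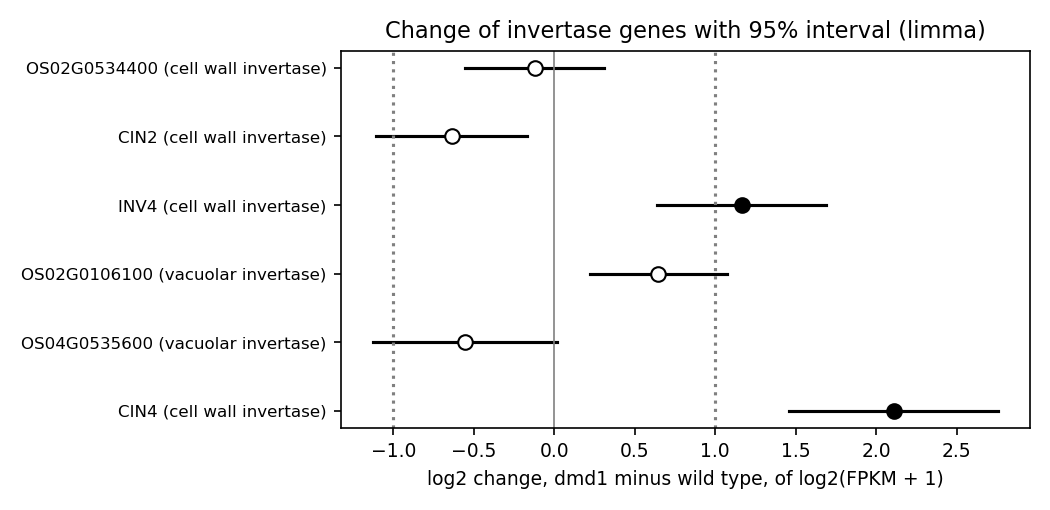
Log2 change of log2(FPKM + 1), dmd1 minus wild type, for the 5 invertase genes and CIN4, with 95% intervals from limma over 3 libraries per genotype. Filled points passed both limits and dotted lines mark the fold minimum. INV4 at 1.16 and CIN4 at 2.11 are filled, and the intervals of OS02G0534400 and OS04G0535600 include 0.

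Across all tested rows the median log2 change was 0.12, and the scaling moved this median to 0.29 with equal totals and to 0.01 with median-of-ratios scaling. Relative to the median row, the log2 change of INV4 was 1.04, that of OS02G0106100 was 0.53, that of OS02G0534400 was -0.24, that of OS04G0535600 was -0.68 and that of CIN2 was -0.76. Over every alternative fit these relative changes kept their signs. They ran from 0.98 to 1.40 for INV4, from 0.42 to 0.73 for OS02G0106100, from -0.40 to -0.14 for OS02G0534400, from -0.84 to -0.27 for OS04G0535600 and from -0.88 to -0.60 for CIN2.

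The order of the levels in wild type was CIN2, OS02G0106100, OS04G0535600, OS02G0534400 and INV4. Each gene stood apart from the next in this order in all libraries, except that the ranges of the 2 vacuolar genes overlapped. In dmd1 the vacuolar genes no longer overlapped, and INV4 (4.94 FPKM) and OS02G0534400 (4.47 FPKM) overlapped in the lowest places. Set against all tested rows, the CIN2 mean was above 98.5% of rows in wild type and above 97.5% in dmd1. The INV4 mean was above 11.9% of rows in wild type and above 33.9% in dmd1.

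As a share of the summed FPKM of the 5 genes, CIN2 held 89.3%, 86.3% and 86.3% in wild-type libraries 1, 2 and 3. In dmd1 its share was 80.6%, 79.6% and 75.7%. The groups did not overlap, with means of 87.3% ± 1.77 and 78.6% ± 2.60 (SD, n = 3). The mean share of OS02G0106100 was 5.98% ± 1.75 in wild type and 13.2% ± 2.48 in dmd1. The INV4 share was 0.484% ± 0.155 and 2.00% ± 0.186, so INV4 remained a minor part of the invertase transcript. The share of OS04G0535600 was 4.80% ± 1.38 and 4.36% ± 0.585.

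**Figure D3:**
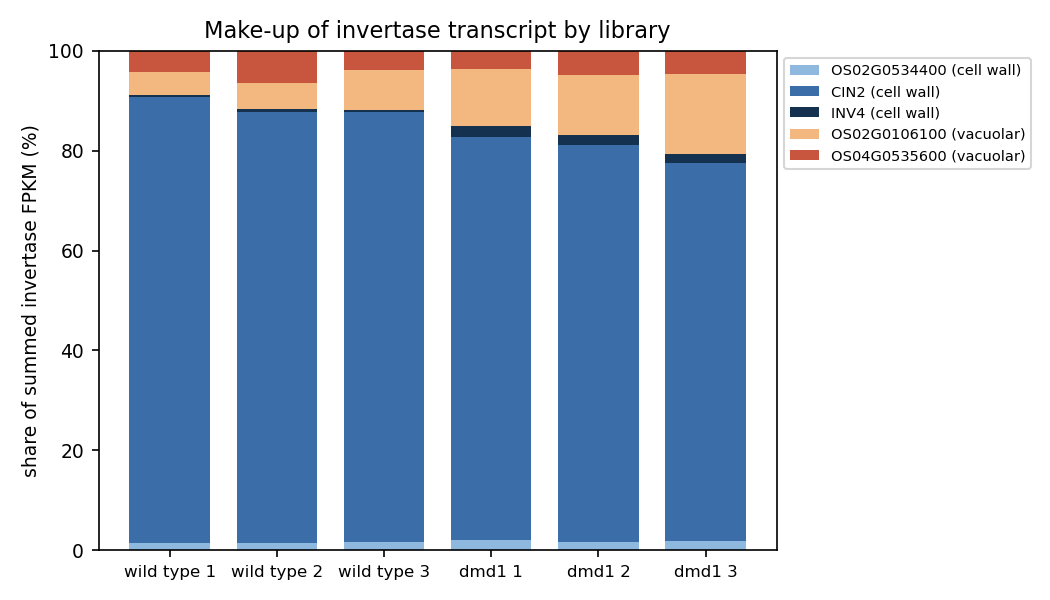
Share of the summed FPKM of the 5 invertase genes held by each gene, in percent, 1 bar per library. Blue shades are cell wall genes and orange to red shades vacuolar genes. The cell wall part is 88.2% to 91.1% in the wild-type libraries and 79.4% to 85.0% in the dmd1 libraries.

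Summed over its 3 members, cell wall invertase transcript averaged 305 ± 27.1 FPKM in wild type and 204 ± 42.5 FPKM in dmd1 (SD, n = 3). Vacuolar invertase transcript averaged 36.6 ± 3.36 and 42.4 ± 4.76 FPKM. The cell wall to vacuolar ratio was 10.2, 7.56 and 7.50 in wild-type libraries 1, 2 and 3, and 5.65, 4.90 and 3.84 in dmd1. All dmd1 ratios were below all wild-type ratios. The cell wall sum follows CIN2 almost alone, and these sums and ratios are values with no test. They cover the 5 members only and leave out other genes of the cell wall invertase family. Of those, the gene listed as CIN4 averaged 9.92 FPKM in wild type and 44.8 FPKM in dmd1, and OS09G0255000 averaged 9.99 and 11.6 FPKM.

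In the RefSeq table of assembly ASM3414082v1, INV4 and CIN2 are neighbours on chromosome 4, with no other gene between them. That table lists INV4 also as CIN3. Both genes were found in it by symbol, and the FPKM were made on another build, IRGSP-1.0. INV4 amounted to 0.427%, 0.768% and 0.475% of the CIN2 level in wild-type libraries 1, 2 and 3, and to 2.75%, 2.37% and 2.52% in dmd1. The difference of their log2 changes, INV4 minus CIN2, was 1.80, and the log2 ratio did not overlap between genotypes. An exact two-sided permutation test gave p = 0.1, the smallest that 3 libraries against 3 allow. The submitters name RSEM as a tool, but the sources used here give no settings for fragments from sequence shared by these related genes. The part of such fragments in the INV4 level was not tested.

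The same test was made for all 10 pairs of members. In 7 pairs the log2 ratio did not overlap between genotypes, each with the smallest possible p of 0.1 in the exact two-sided permutation test and a Benjamini-Hochberg adjusted p = 0.143, so no pair can pass with this number of libraries. The 10 pairs reuse the same members, and no such count was made for pairs of other genes. Taken singly, 38.4% of all tested rows already did not overlap between genotypes. The count of 7 is therefore not read as a feature of invertases. Among the 7 was the vacuolar pair. The ratio of OS02G0106100 to OS04G0535600 was 1.10, 0.832 and 2.09 in wild-type libraries 1, 2 and 3, and 3.07, 2.56 and 3.45 in dmd1. In the other 3 pairs the ratios overlapped. One of them was CIN2 against OS04G0535600, whose log2 changes differed by -0.08 (exact permutation p = 0.8). The others were INV4 against OS02G0106100, with a difference of 0.52 (exact permutation p = 0.2), and OS02G0534400 against OS04G0535600, with a difference of 0.43 (exact permutation p = 0.3).

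On the side of wild-type library 2 and dmd1 library 1, described above, the INV4 log2 change was 1.07, against 1.00 on the opposite side. For CIN2 it was -0.46 and -1.03, for OS02G0106100 0.70 and 0.55, for OS04G0535600 -1.08 and -0.56, and for OS02G0534400 0.22 and -0.45. The first side sets 1 library against 1, the second has 1 dmd1 library, and dmd1 library 2 enters neither, so these are values with no test. With wild-type library 2 and dmd1 library 1 left out together, INV4 stayed called at 1.21 (adjusted p = 0.0431 by limma). In that fit CIN2 had -0.73, OS02G0106100 0.62, OS04G0535600 -0.30 and OS02G0534400 -0.29, none called.

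Markers of the tissue moved between the genotypes as well. All 7 tapetum markers were detected. Their summed level was 24894 to 27454 FPKM in wild type and 2322 to 6171 FPKM in dmd1, with 3 members lower, 1 higher and 3 not called. In wild type this sum was mostly C6, CYP704B2 and CYP703A3. CYP704B2 averaged 7960 FPKM in wild type and 1115 FPKM in dmd1, and CYP703A3 4946 and 1130 FPKM, both called as lower. Among the tapetal regulators on that list, EAT1 (502 FPKM in wild type, 61.3 FPKM in dmd1) was called as lower and TIP2 (72.9 and 252 FPKM) as higher, while TDR (933 and 881 FPKM) and UDT1 (15.7 and 16.7 FPKM) were not called. The other uncalled marker, C6, averaged 11532 FPKM in wild type and 800 FPKM in dmd1, without overlap (adjusted p = 0.103 by limma). It stood at 2039, 360 and 2.39 FPKM in dmd1 libraries 1, 2 and 3. Of the tapetum calls, TIP2 and CYP704B2 held in all 17 alternative fits. EAT1 and CYP703A3 were each lost in 3 of 17 alternative fits, those that leave out libraries 1 or 3 of wild type or library 2 of dmd1, with adjusted p up to 0.0724 and 0.0613 (limma). Green tissue markers summed to 199 to 390 FPKM in wild type and to 122 to 197 FPKM in dmd1, with 1 of 5 tested members called as lower and 1 of 6 listed at 0 in all libraries. That call, CAB2R, was lost in 4 of 17, on leaving out libraries 1 or 3 of wild type or libraries 1 or 2 of dmd1, with adjusted p up to 0.0865 (limma). The 5 late pollen markers summed to 1.26 to 1.76 FPKM in wild type and to 0.203 to 1.24 FPKM in dmd1, with at least 2 of them listed at 0 in each library. The part of these shifts in the invertase values was not tested.

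The rest of the sugar route was read from lists whose symbols come from general knowledge. The authors' table holds no symbols and the RefSeq table holds none of these identifiers, so a symbol here is a working name. Of 40 symbols on the sugar lists, 34 are listed by RefSeq on the chromosome that the identifier names, 5 are not listed and 1, that of OS09G0255000, is listed on another chromosome. Among 30 tested genes outside the 5 members, 2 were called as higher and 6 as lower, against 3.16% and 3.54% of all tested rows. The lists were chosen with earlier results known, so these counts are not read against those shares. In the lists below, rose and fell stand for such calls, and a gene without a call may still have moved.

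In the list of other invertases, with 5 genes listed, 4 in the table and 3 tested, 1 rose and 2 were not called. The gene listed as CIN4 (OS01G0966700), of the cell wall invertase family, was at 6.86, 14.2 and 8.71 FPKM in wild-type libraries 1, 2 and 3, and at 49.9, 35.5 and 49.2 FPKM in dmd1. The lowest dmd1 library was 2.50 times the highest wild-type library. The log2 change was 2.11 ± 0.27 (SE, adjusted p = 0.00866 by limma), and CIN4 was called in all 17 alternative fits, with log2 changes from 1.90 to 2.38. Set against CIN2, CIN4 amounted to 3.38% ± 1.43 of its level in wild type and 24.3% ± 8.74 in dmd1 (SD, n = 3). The median log2 change of the 3 tested genes was 0.19, near the 0.12 of all rows. A neutral invertase gene listed as CYT-INV1 (OS02G0550600) averaged 24.8 FPKM in wild type and 27.2 in dmd1, a difference of 0.13 on the log2 scale (95% interval from -0.16 to 0.43; adjusted p = 0.511 by limma). OS09G0255000 had a log2 change of 0.19 (95% interval from -0.09 to 0.48; adjusted p = 0.32 by limma). These 2 complete the list and were not picked by their values, and the untested OS04G0664900 was at 0.236 FPKM or less in every library.

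Sucrose synthases split sucrose by a route that keeps part of its energy in UDP-glucose. Of 7 tested, 2 fell while 5 gave no call, with a median log2 change of -0.51. The gene listed as SUS2 (OS06G0194900) was at 3561, 2732 and 3322 FPKM in wild-type libraries 1, 2 and 3, and at 531, 348 and 142 FPKM in dmd1. This gave -3.42 ± 0.47 on the log2 scale (SE, adjusted p = 0.0105 by limma). It was the most abundant sucrose-splitting gene of all those listed here in wild type, above CIN2. Without wild-type library 1 the adjusted p was 0.0509 (limma). SUS3, as OS07G0616800 is listed, fell from a mean of 5.40 ± 1.35 FPKM to 1.55 ± 0.46 FPKM (SD), or by 1.32 ± 0.23 log2 units (SE, adjusted p = 0.0197 by limma). The SUS3 call did not hold on leaving out libraries 1 or 3 of wild type or libraries 1 or 2 of dmd1 (adjusted p = 0.0775, 0.0722, 0.0517 and 0.0585 by limma) and with the replicate block (adjusted p = 0.0562 by limma).

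Among sugar transporters, 12 of 16 were tested, 1 rose, 2 fell and 9 were not called, with a median log2 change of -0.50. The largest log2 change, -3.78 for the gene listed as SWEET15 (OS02G0513100), was not called (adjusted p = 0.0749 by limma). SWEET15 averaged 121 FPKM in wild type and 20.8 FPKM in dmd1, without overlap, and is named after its values were seen. The rise was in the gene listed as SWEET4 (OS02G0301100), a sugar efflux gene, from 60.7 ± 1.57 to 173 ± 9.27 FPKM (adjusted p = 0.00317 by limma), and it was called in all 17 alternative fits. MST6 (the working name of OS07G0559700), a monosaccharide transporter, fell from a mean of 659 ± 178 FPKM to 120 ± 93.0 FPKM (SD), or by 2.79 ± 0.66 log2 units (SE, adjusted p = 0.0418 by limma). Its call was lost when any single wild-type library was left out (adjusted p = 0.108, 0.0902 and 0.109 by limma for libraries 1, 2 and 3), without dmd1 library 2 (0.109), without the low-value filter (0.0663) and with the replicate block (0.0627). A sucrose transporter gene listed as SUT5 (OS02G0576600) fell from a mean of 41.0 ± 6.54 FPKM to 16.0 ± 8.54 FPKM (SD, adjusted p = 0.0472 by limma). SUT5 kept its call in 6 of 17 alternative fits. Leaving out libraries 1, 2 or 3 of wild type or libraries 1 or 3 of dmd1 ended it (adjusted p = 0.129, 0.0725, 0.134, 0.123 and 0.0845 by limma). Other fits that lost the call included a pseudocount of 0.1, no low-value filter and equal totals (adjusted p = 0.0515, 0.0734 and 0.0552 by limma). Over the 17 alternative fits the SUT5 log2 change ran from -1.79 to -0.83.

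Of 8 tested hexokinases, 2 fell and 6 were not called, with a median log2 change of -0.27. The gene listed as HXK7 (OS05G0187100) was at 1448, 2080 and 1497 FPKM in wild-type libraries 1, 2 and 3, and at 165, 76.7 and 10.6 FPKM in dmd1. The log2 change was -4.96 ± 0.91 (SE, adjusted p = 0.0218 by limma), and dmd1 library 3 was the lowest by far. The HXK7 call ended when wild-type library 1, 2 or 3, or dmd1 library 2, was left out (adjusted p = 0.0768, 0.0512, 0.0687 and 0.0686 by limma). HXK3, the working name of OS01G0940100, fell from a mean of 97.4 ± 34.3 FPKM to 25.9 ± 16.0 FPKM (SD, adjusted p = 0.0409 by limma). Its call ended on leaving out libraries 1, 2 or 3 of wild type or libraries 2 or 3 of dmd1 (adjusted p = 0.108, 0.0851, 0.0882, 0.12 and 0.0685 by limma), without the low-value filter (0.065) and with the replicate block (0.0546).

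**Figure D4:**
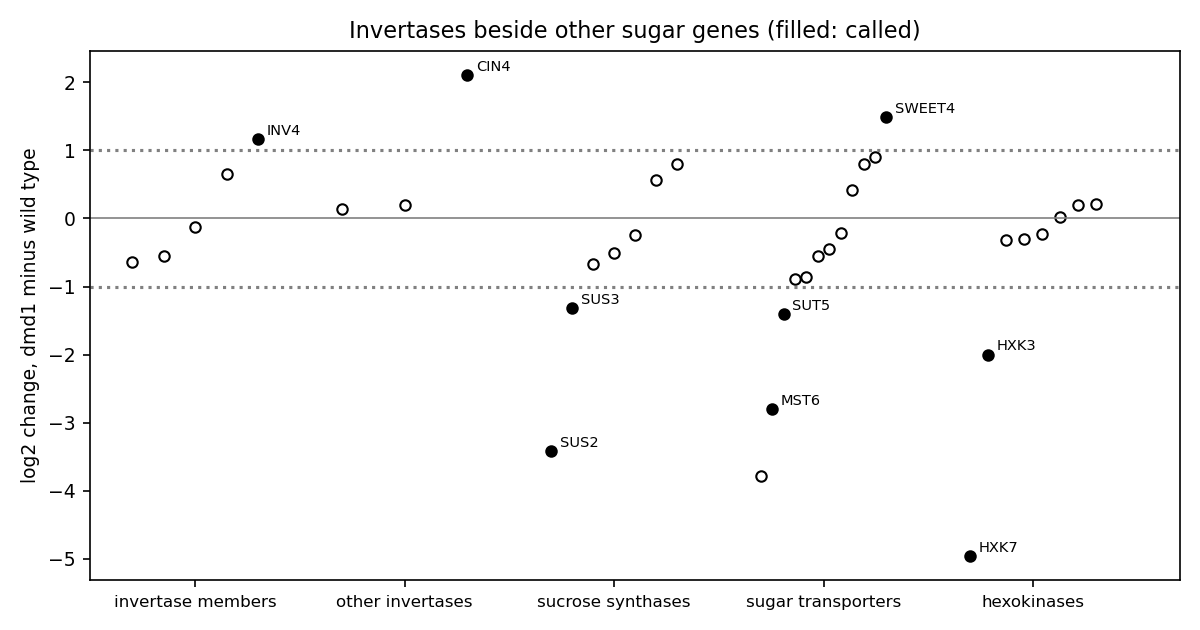
Log2 change, dmd1 minus wild type, of each tested gene of the 5 invertase members and of 4 sugar lists. Filled points passed both limits and carry their working names, and dotted lines mark the fold minimum. INV4, CIN4 and SWEET4 rose, while the calls among sucrose synthases and hexokinases were all lower.

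Likeness of pattern was measured as the root mean square difference of log2(FPKM + 1) over the 6 libraries, each gene centred on its own mean, among 34 other tested sugar genes. Nearest to CIN2 were the genes listed as SUS1, at 0.16, and MST3, at 0.19, against a median of 0.49 over all 34. SUS1 (OS03G0401300) had means of 260 FPKM (wild type) and 165 FPKM (dmd1), and this difference of -0.66 on the log2 scale passed the adjusted p alone (adjusted p = 0.0296 by limma). Nearest to INV4 were the genes listed as SUS4, at 0.20, and SUT1, at 0.25, against a median of 0.73. SUS4 (OS03G0340500) averaged 5.71 and 10.6 FPKM, and SUT1 (OS03G0170900) 4.84 and 9.71 FPKM, neither called (adjusted p = 0.0551 and 0.0762 by limma). For OS02G0106100 the nearest was OS09G0255000, at 0.28. For OS04G0535600 it was the gene listed as SWEET13, at 0.19. For OS02G0534400 it was the gene listed as SUS5, at 0.12. SWEET13 averaged 1.88 FPKM in wild type and 0.521 FPKM in dmd1, and MST3 averaged 1.74 and 1.02 FPKM. At such low levels the added 1 shrinks a change and so the distance. With 0.1 added in its place, the log2 change of SWEET13 was -1.67, against -0.59 for OS04G0535600. The measure depends on the size of a gene's own changes, so these distances are comparable only within 1 member.

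**Figure D5:**
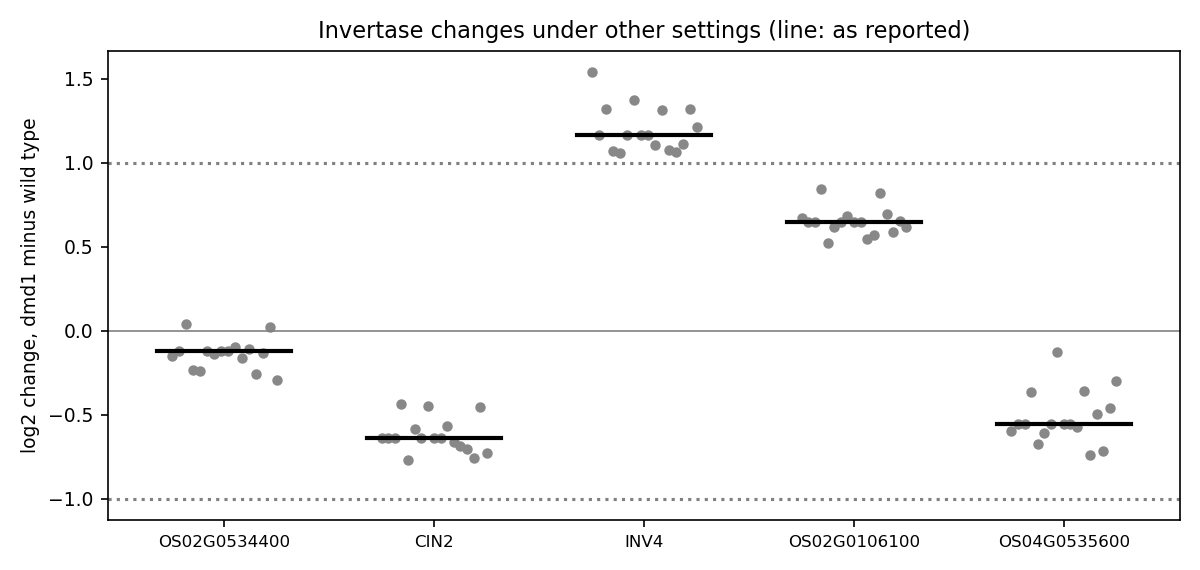
Log2 change, dmd1 minus wild type, of each invertase gene as reported (black line) and under the alternative fits (grey points), with dotted lines at the fold minimum. INV4 stays above 1 in all its fits, from 1.06 to 1.54, and OS02G0534400 crosses 0.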

How the data were processed

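RNA of 6 anther libraries, 3 wild type and 3 dmd1, was sequenced. The authors deposited 1 table of FPKM values per library. Per the submitters' processing notes, fastp, HISAT and RSEM were used with the build IRGSP-1.0; versions, annotation and strand setting are not given there. FPKM is not a count, so no count model was used and no counting interval can be given. Steps among low FPKM values gave approximate depths of 0.853 to 1.40 relative to wild-type library 1, resting on 3.70% to 12.7% of low rows. FPKM totals ran from 808227 to 1287424 per library. Columns were matched to samples by name, and no libraries were identical.

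Rows with FPKM of at least 1 in at least 3 libraries (25474) were fitted on log2(FPKM + 1) with limma 3.58.1 in R 4.3.3 (trend and robust options, no replicate block), with Benjamini-Hochberg adjustment over all rows. A call needed an adjusted p under 0.05 together with at least 1 log2 unit of change. Pairs of members were compared by exact permutation with scipy 1.17.1. In the fit with library weights, the weight estimate stopped before it fully converged.

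The members and lists were chosen with earlier results of these data known. All members, every called gene of the 4 sugar lists and the 2 nearest genes in pattern were to be named; of the latter, the second nearest to OS02G0534400, OS02G0106100 and OS04G0535600 were the genes listed as HXK4, HXK6 and SUS6. Marker lists for tapetum, green tissue and late pollen were set alongside. The alternatives were another pseudocount, other filters, 3 scalings, plain eBayes, library weights, a replicate block, OS rows only and leaving out libraries.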

Additional observations from a re-analysis of the deposited data

How the results depend on the processing

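The number of rows called, 1709, moved by over 1.5 times with library weights (2672), without wild-type library 1 (680) or 3 (934) and without dmd1 library 2 (671). Leaving out each of the other 3 libraries gave 1405 to 1605. INV4 kept its direction in 16 alternative fits. Leaving out libraries singly gave log2 changes from 1.06 to 1.32 with adjusted p from 0.0244 to 0.0888 (limma), and 4 of these 6 fits lost the call. The filter on a mean of at least 5 FPKM removed INV4 and OS02G0534400 and gave no value for them. OS02G0534400 turned sign with equal totals (0.039) and ran from -0.26 to 0.020 with libraries left out singly. CIN2, OS02G0106100 and OS04G0535600 kept their direction and stayed uncalled in 17 fits each, although CIN2 and OS02G0106100 passed the adjusted p alone in 2 each. The other filters, plain eBayes, the replicate block and OS rows only leave the log2 change of a row as it was. The genotypes did not overlap in INV4, CIN2 and OS02G0106100, so leaving out libraries, weights or another pseudocount cannot turn their sign. For these genes only the 3 scalings could have done so. The 8 calls on the sugar lists became 5 without the low-value filter, 4 with the replicate block and 2 to 7 with libraries left out singly. The cause of these changes was not tested, and the fits that leave out a library also hold fewer samples. Rises made up 47.2% of all calls, against 63.0% when totals were made equal and 35.5% under median-of-ratios scaling.

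The replicate numbers are not tied by any label. Deviations from the group means of same-numbered libraries correlated at -0.35, -0.01 and 0.35 over the tested rows, so no pairing was assumed. With the replicate block 1395 rows were called, and INV4 had an adjusted p = 0.0446 (limma). The difference between INV4 and CIN2 was 1.80 with the block, which cannot change it in this balanced layout. With libraries left out singly the difference was 1.67 to 1.97. Fragment depth is unknown, which limits what can be said of INV4 in wild type at 1.32 to 2.22 FPKM.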
